A study of Homo sapiens with 9 samples.

Results

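The genes described here are a list of 56 that cells use to copy their DNA and to divide. They fall into 26 DNA replication genes, 10 genes for cyclins, cyclin-dependent kinases (CDKs) and CDC25 phosphatases, and 20 mitosis genes. They were found on the arrays by matching each probe's accession to a RefSeq gene symbol, and the brightest probe stood for a gene. Of the 56, 55 were measured, among 47753 genes or unnamed transcripts in all. The mitotic kinase gene PLK1 was not matched by accession and is not analysed here.

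A dividing cell copies its DNA in S phase and separates the copies in M phase. Origins are marked by the origin recognition complex, CDC6 and CDT1 load the MCM helicase there, and CDC45 and the GINS complex switch the helicase on. DNA polymerases, the sliding clamp PCNA and enzymes that supply deoxynucleotides then carry out synthesis. Cyclin E with CDK2 drives entry into S phase, cyclin B with CDK1 drives mitosis, and CDC25 phosphatases activate these kinases. Many replication genes are known targets of E2F factors at the entry to S phase, whereas many mitosis genes are switched on later through a promoter element called CHR, often beside CCAAT boxes. HIF-1α, the oxygen-regulated subunit of HIF-1, is known to be able to hold back the cell cycle in hypoxia. GATA3 is a zinc finger transcription factor.

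RNA came from OEC-M1, a head and neck squamous cell carcinoma line, and was measured with 1 dye on 9 Agilent arrays. All cells, controls included, were transfected with siRNA for 72 h and held at 1% O2 for 18 h. There were 3 arrays each for non-targeting siRNA (si-Control), siRNA against GATA3 (GATA3 knockdown) and siRNA against HIF-1α (HIF-1α knockdown). A legend of the study names 1 siRNA per target, so effects of the target and of the siRNA itself cannot be told apart. Nothing states that replicates were separate cultures, so P values measure only the spread between these arrays, which may be technical. Replicate numbers 1, 2 and 3 were also the slides and the scans. Each slide held 1 array of each group, and a group had the same position on every slide, so group and position cannot be told apart.

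Signals are given as log2 intensity after background correction and quantile normalisation, and differences as log2 fold changes ± SE from limma, so that a gene said to be at a value has that log2 fold change. A gene was called at an unadjusted P of 0.05, the threshold of the study's methods, and adjusted P values are Benjamini-Hochberg values over all genes tested. No gene of the list passed an adjusted P of 0.05 in any comparison, so "rose" and "fell" refer to the unadjusted threshold throughout. How often groups failed to overlap was not counted over all genes, so a lack of overlap below is only a description. GATA3 itself fell by 1.27 in GATA3 knockdown and HIF1A fell by 2.32 in HIF-1α knockdown. HIF1A differed by -0.05 ± 0.35 in GATA3 knockdown. Median spot intensity was between 992.5 and 3560 per array. The lowest was si-Control replicate 3, which correlated with the other control arrays at 0.931 and 0.957, against 0.962 to 0.985 for the other pairs within a group. It and si-Control replicate 1 differed most from each other in many of the genes below. The squamous genes KRT14, KRT17, TP63 and CDH1 were well above background on all 9 arrays and KRT5 on 0. The leukocyte genes PTPRC and CD3E were also marked so on all 9, so the mark is not evidence of expression.

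All 55 genes were well above background on all 9 arrays, and none was saturated. Spots marked as non-uniform left POLE2 without a value on si-Control replicate 1 and HIF-1α knockdown replicate 1, and GINS1 and CCNE1 without one on HIF-1α knockdown replicate 1. Their fits used the remaining arrays. Gene positions below are those of RefSeq on GRCh38.p14, and where in the gene a probe lies was not analysed here. There were 10 genes with more than 1 probe.

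Promoter sequence is shown first because it separates the classes by a feature that the signals did not choose. RefSeq windows of 300 bases on GRCh38.p14, from 250 before to 50 after a transcript's start, were at hand for 44 of the 55 genes (23 replication, 7 cyclin and CDK, and 14 mitosis genes). An E2F match (TTTCCCGC, TTTCGCGC, TTTGCCGC or TTTGGCGC, either strand) was in 46.7% of 30 replication windows, 27.3% of 11 cyclin and CDK windows and 12.5% of 16 mitosis windows, against 3.31% of all 35116 windows. A CHR match (TTTGAA or TTCGAA) ran the other way, with 6.67%, 45.5% and 62.5%, against 16.4% of all windows. CCAAT was in 66.7%, 72.7% and 87.5%, against 34.6%. The core of the hypoxia response element (ACGTG or GCGTG) was in 76.7%, 45.5% and 68.8%, against 48.4%. A GATA match (AGATAA or TGATAA) was in 3.33%, 0% and 0%, against 16.3%. These shares are descriptions. Windows of a gene can overlap, base composition was not matched, and a match is not a bound site.

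The 200 bases before the start, on the gene's strand, are printed for some of the genes that the results below turn on, with MKI67 as an example of a CHR promoter. AURKB is not printed, and its 2 windows held CCAAT boxes but no E2F or CHR match. CCNE2, CDK2 and AURKA had no window. Capitals mark E2F, CHR and CCAAT matches on either strand, so a CCAAT box on the other strand reads ATTGG. For RRM2 and TK1, which have 2 windows each, the window with CCAAT boxes in these 200 bases is shown.
MCM3 (chr6:52284743-52284942, minus strand): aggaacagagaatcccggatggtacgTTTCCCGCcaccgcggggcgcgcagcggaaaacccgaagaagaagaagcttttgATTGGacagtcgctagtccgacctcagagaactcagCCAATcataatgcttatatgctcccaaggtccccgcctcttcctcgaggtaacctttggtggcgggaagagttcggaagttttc
CDC25A (chr3:48188418-48188617, minus strand): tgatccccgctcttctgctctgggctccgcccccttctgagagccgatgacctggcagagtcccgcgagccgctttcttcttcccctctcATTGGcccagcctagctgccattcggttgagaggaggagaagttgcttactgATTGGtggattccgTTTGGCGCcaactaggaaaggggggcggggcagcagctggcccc
RRM2 (chr2:10122539-10122738, plus strand): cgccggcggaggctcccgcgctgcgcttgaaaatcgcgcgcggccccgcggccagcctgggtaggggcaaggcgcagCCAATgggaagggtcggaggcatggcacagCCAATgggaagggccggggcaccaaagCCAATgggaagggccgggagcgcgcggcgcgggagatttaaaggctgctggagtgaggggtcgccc
TK1 (chr17:78187053-78187252, minus strand): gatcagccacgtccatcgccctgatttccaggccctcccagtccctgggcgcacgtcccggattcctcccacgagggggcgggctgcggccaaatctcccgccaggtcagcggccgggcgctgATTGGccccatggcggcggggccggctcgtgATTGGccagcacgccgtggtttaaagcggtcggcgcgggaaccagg
MKI67 (chr10:128126424-128126623, minus strand): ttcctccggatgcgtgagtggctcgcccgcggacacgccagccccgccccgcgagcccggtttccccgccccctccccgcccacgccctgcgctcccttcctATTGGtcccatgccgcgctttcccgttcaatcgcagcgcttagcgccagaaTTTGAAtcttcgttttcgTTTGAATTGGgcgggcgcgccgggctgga
BUB1 (chr2:110678064-110678263, minus strand): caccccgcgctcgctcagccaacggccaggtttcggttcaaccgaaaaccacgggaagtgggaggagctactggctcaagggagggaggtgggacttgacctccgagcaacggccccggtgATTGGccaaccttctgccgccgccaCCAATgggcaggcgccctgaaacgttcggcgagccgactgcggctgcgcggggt
CENPE (chr4:103198344-103198543, minus strand): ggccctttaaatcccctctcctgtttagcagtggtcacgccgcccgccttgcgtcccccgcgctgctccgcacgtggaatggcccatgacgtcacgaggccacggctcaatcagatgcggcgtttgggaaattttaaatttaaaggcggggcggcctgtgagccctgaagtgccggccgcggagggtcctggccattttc
MCM3 held an E2F match 174 bases before its start and another that began 4 bases before it and so runs past the printed end. CDC25A held 1 at 44 bases. In the printed bases RRM2 had 3 CCAAT boxes and TK1 had 2, with no match to the 4 E2F words. MKI67 had CHR matches at 47 and 29 bases, the second of which shares a base with a CCAAT box. BUB1 had 2 CCAAT boxes and a CHR match 2 bases into the transcript, and CENPE had no match to these 3 motifs.

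In HIF-1α knockdown, 7 of the 55 genes were called (12.7%), against 5.23% of all 47368 genes tested. Of these, 6 rose, against 1.95% of all genes, and 1 fell, against 3.28% of all genes. Here and below, all genes include unnamed transcripts and dim probes, unlike the 55, so the shares do not compare like with like. The genes that rose act at the start of DNA synthesis (CCNE2, CDC25A, MCM3), in deoxynucleotide supply (RRM2, TK1) and in mitosis (AURKB), and the gene that fell was CENPE, a kinetochore motor. The 26 replication genes had a median log2 fold change of 0.31, with 23 higher and 3 lower in mean than si-Control. The 10 cyclin and CDK genes had a median of 0.13 (7 higher, 3 lower) and the 19 mitosis genes a median of -0.21 (6 higher, 13 lower). The median over all genes was -0.01. In RNA from a whole culture, a larger share of cells in S phase and more RNA per cell cannot be told apart. These class values were not the same on every slide. On slides 1, 2 and 3 the replication median was 0.58, 0.57 and -0.24, the cyclin and CDK median 0.32, 0.61 and -0.66, and the mitosis median 0.16, 0.17 and -0.92. Without si-Control replicate 3 the replication and mitosis medians were 0.58 and 0.09, and without si-Control replicate 1 they were 0.13 and -0.36. The mitosis median was above 0 only without si-Control replicate 3, among the arrays left out, while the replication median stayed above 0 whichever array was left out.

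**Figure D1:**
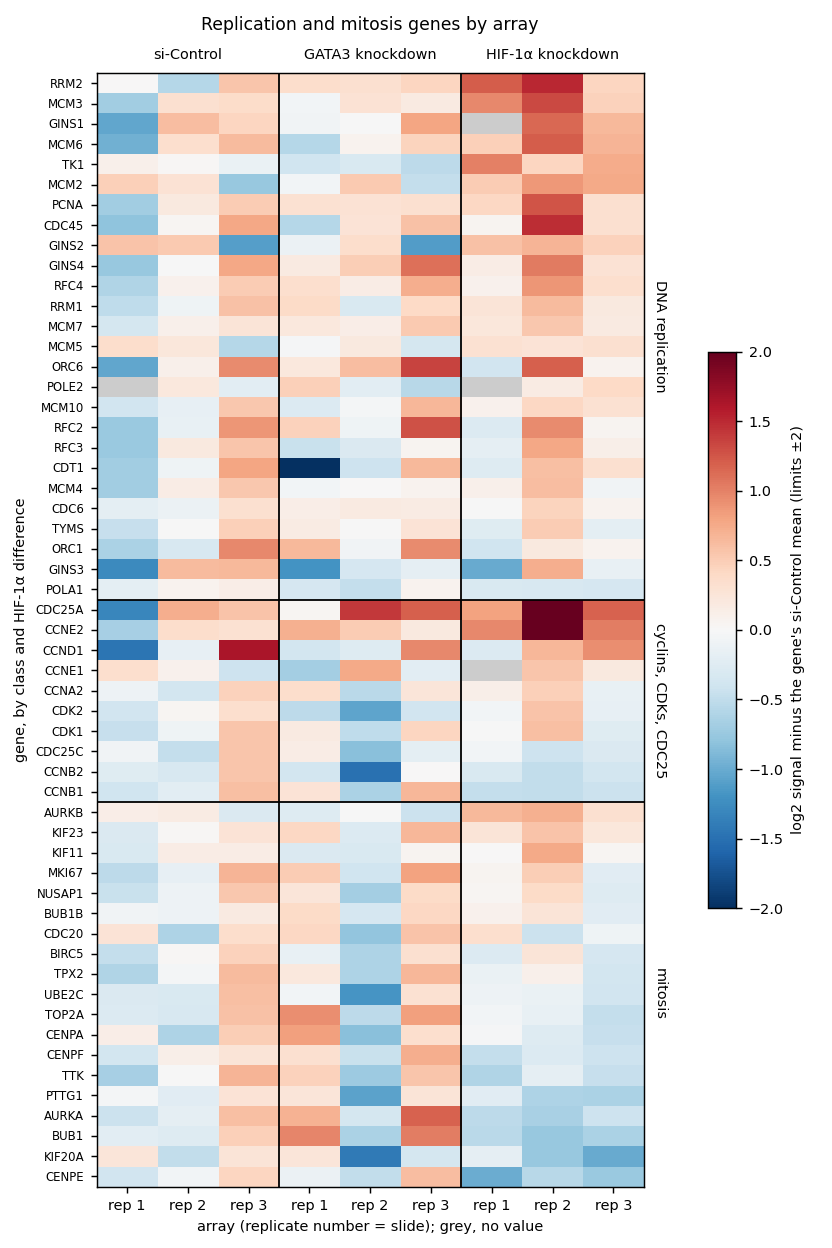
Log2 signal of the 55 genes (rows, by class and then by HIF-1α knockdown difference) on the 9 arrays (columns), as the difference from the gene's si-Control mean, with grey for no value. Most replication rows are high on HIF-1α knockdown replicate 2 and low on si-Control replicate 1, and most rows are high on si-Control replicate 3.

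MCM3, a subunit of the replicative helicase (chr6:52264015-52284742), had signals of 13.29, 14.31 and 14.36 on the si-Control arrays, 13.93, 14.27 and 14.17 in GATA3 knockdown and 14.95, 15.31 and 14.45 in HIF-1α knockdown. All 3 HIF-1α knockdown arrays were above all others, although replicate 3 by only a little. It rose by 0.92 ± 0.34 (1.89-fold, limma adjusted P = 0.823). The call was lost without si-Control replicate 1 (0.57), HIF-1α knockdown replicate 1 (0.90) or replicate 2 (0.72). The other helicase subunits MCM2, MCM4, MCM5, MCM6 and MCM7 were at 0.71, 0.21, 0.30, 0.79 and 0.31 and did not pass the test. With the slide as a block, MCM2 and MCM6 passed the unadjusted threshold too. MCM2 was 15.88, 15.69 and 14.65 in si-Control and 15.91, 16.28 and 16.16 in HIF-1α knockdown, so these groups did not overlap. Without si-Control replicate 1 it was at 0.95 and passed the threshold, and without si-Control replicate 3 it was at 0.33.

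The factors that load and switch on the helicase gave no call. ORC1 and ORC6 of the origin complex were at -0.04 and 0.29, CDC6 at 0.17, CDT1 at 0.22 and MCM10 at 0.27. CDC45 was at 0.62, and GINS1, GINS2, GINS3 and GINS4 were at 0.90, 0.57, -0.14 and 0.49. PCNA was 13.03, 13.93 and 14.24 in si-Control and 14.15, 14.99 and 14.06 in HIF-1α knockdown, with a difference of 0.67 ± 0.36 (limma adjusted P = 0.823) and groups that overlapped. The other PCNA probe gave 0.68. Without si-Control replicate 3 PCNA was at 0.92 and passed the threshold, and without si-Control replicate 1 it was at 0.32. The clamp loader genes RFC2, RFC3 and RFC4 were at 0.25, 0.24 and 0.44. POLA1, a subunit of polymerase alpha, was at -0.32 and POLE2, a subunit of polymerase epsilon, at 0.28.

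Of the deoxynucleotide genes, RRM2, the regulated subunit of ribonucleotide reductase (chr2:10122568-10211010), had signals of 12.17, 11.59 and 12.71 in si-Control, 12.51, 12.48 and 12.59 in GATA3 knockdown and 13.36, 13.67 and 12.58 in HIF-1α knockdown. It rose by 1.05 ± 0.35 (2.07-fold, limma adjusted P = 0.823). HIF-1α knockdown replicates 1 and 2 were above every control array, and replicate 3 was within their range, with a difference of -0.13 on slide 3. The call was lost without si-Control replicate 2 (0.76) or HIF-1α knockdown replicate 2 (0.81). The larger subunit RRM1 was at 0.36 and thymidylate synthase TYMS at 0.02.

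TK1, thymidine kinase of the salvage route (chr17:78174079-78187204), had signals of 16.64, 16.57 and 16.41 in si-Control, 16.13, 16.24 and 16.01 in GATA3 knockdown and 17.55, 16.96 and 17.29 in HIF-1α knockdown. The 3 groups did not overlap, with HIF-1α knockdown highest and GATA3 knockdown lowest. TK1 rose by 0.73 ± 0.23 in HIF-1α knockdown (1.66-fold, limma adjusted P = 0.823) and kept the call whichever array was left out. It depended on the scaling of the arrays, however. It was at 0.37 with 75th percentile scaling after the same background correction, 0.17 with the processed signal and 0.17 in the authors' log2 table, and missed the threshold in each.

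Among the cyclins, CCNE2, a cyclin E (chr8:94880224-94896693), had signals of 10.39, 11.40 and 11.36 in si-Control, 11.77, 11.55 and 11.24 in GATA3 knockdown and 12.02, 13.22 and 12.07 in HIF-1α knockdown. All 3 HIF-1α knockdown arrays were above all 6 others. CCNE2 rose by 1.38 ± 0.39 (2.61-fold, limma adjusted P = 0.792), by 1.62, 1.82 and 0.71 on the 3 slides, and kept the call whichever array was left out. Its second probe rose by 1.10 ± 0.45. The other cyclin E gene, CCNE1, was at 0.38, and their partner CDK2 at 0.12.

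CDC25A, the phosphatase that activates CDK2 (chr3:48157146-48188417), had signals of 8.79, 10.82 and 10.65 in si-Control, 10.12, 11.50 and 11.29 in GATA3 knockdown and 10.90, 12.26 and 11.27 in HIF-1α knockdown. All HIF-1α knockdown arrays were above the controls, and si-Control replicate 1 was far below the rest. It rose by 1.39 ± 0.59 (2.62-fold, limma adjusted P = 0.823), with differences of 2.10, 1.44 and 0.62 on the 3 slides. The slide as a block kept the call. The call was lost without si-Control replicate 1 (0.74), GATA3 knockdown replicate 3 (1.39) or HIF-1α knockdown replicate 2 (0.99) or 3 (1.49). CCND1, cyclin D1, ranged from 12.82 on si-Control replicate 1 to 15.91 on si-Control replicate 3, and its difference was 0.44 ± 0.70. Without si-Control replicate 3 it was at 1.25 and passed the threshold, and without si-Control replicate 1 it changed sign (-0.30). No direction is given for CCND1.

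The cyclins and kinase of mitosis were on the other side of 0 or near it. CDK1 was at 0.12 ± 0.36, CCNA2 at 0.15, CCNB2 at -0.39 and CDC25C at -0.25. CCNB1, cyclin B1, was 14.17, 14.35 and 15.16 in si-Control and 14.08, 14.06 and 14.13 in HIF-1α knockdown, with a difference of -0.47 ± 0.37 (limma adjusted P = 0.823). Its dimmer probe, which had no value on 1 control and 1 HIF-1α knockdown array, gave the opposite sign, at 0.99 ± 0.35, and passed the unadjusted threshold. No direction is given for CCNB1.

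**Figure D2:**
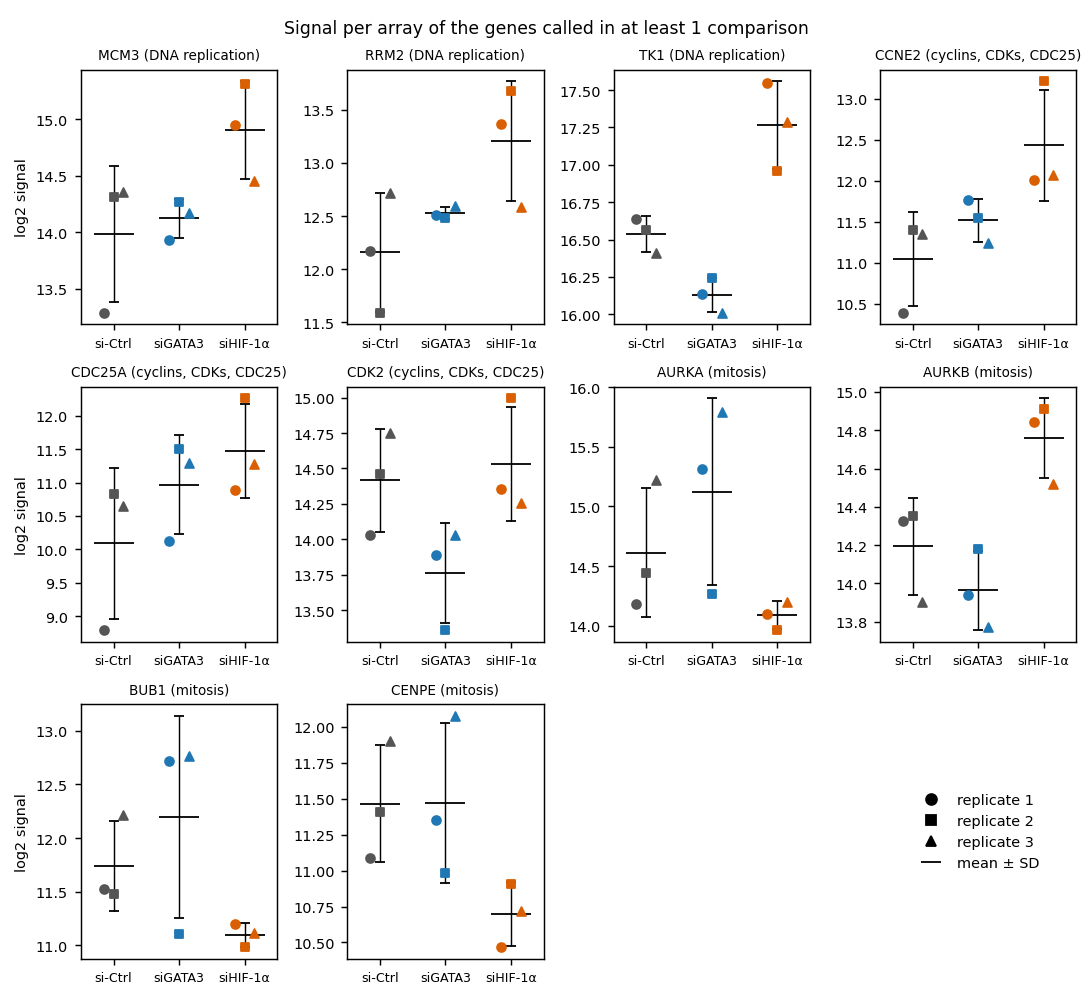
Log2 signal (y axis, scale set for each gene) of the 10 genes called in at least 1 comparison, by group, with a symbol for each replicate and a bar for the mean ± SD. TK1, CCNE2, MCM3, CDC25A and AURKB were above all si-Control arrays on every HIF-1α knockdown array, and CENPE was below them. The genes were chosen by calls on these same signals, so this separation is not further evidence.

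Of the mitosis genes, 1 rose and 1 fell. AURKB, the Aurora kinase of the chromosomal passenger complex (chr17:8204731-8210575), had signals of 14.33, 14.35 and 13.90 in si-Control, 13.94, 14.18 and 13.77 in GATA3 knockdown and 14.84, 14.91 and 14.52 in HIF-1α knockdown. The HIF-1α knockdown arrays were above all others, by 0.52, 0.56 and 0.62 against the control of the same slide. It rose by 0.56 ± 0.24 (1.48-fold, limma adjusted P = 0.823). The call was lost without si-Control replicate 2 (0.64) or 3 (0.42), GATA3 knockdown replicate 1 (0.56) or HIF-1α knockdown replicate 1 (0.52) or 2 (0.49), and with the processed signal (0.43). The AURKB call was also lost in the authors' log2 table (0.43), with 75th percentile scaling (0.49) and with no background offset (0.57). Only the 6 arrays compared (0.56) and eBayes with trend (0.56) lost it as well. BIRC5, survivin of the same complex, was at -0.12.

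CENPE, a motor that moves chromosomes at the kinetochore (chr4:103105811-103198343), had signals of 11.09, 11.41 and 11.90 in si-Control, 11.35, 10.98 and 12.08 in GATA3 knockdown and 10.47, 10.91 and 10.72 in HIF-1α knockdown. All 3 HIF-1α knockdown arrays were below all others. It fell by 0.77 (SE 0.33, 1.70-fold lower, limma adjusted P = 0.823). The call was lost without si-Control replicate 2 (-0.79) or 3 (-0.55) or GATA3 knockdown replicate 1 (-0.77). It was also lost without any of HIF-1α knockdown replicates 1 (-0.65), 2 (-0.87) and 3 (-0.78). The processed signal (-0.75), the authors' log2 table (-0.76), 75th percentile scaling (-0.70) and eBayes with trend (-0.77) lost the call too.

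The other 17 mitosis genes gave no call. The spindle checkpoint genes BUB1, BUB1B and TTK were at -0.64, 0.04 and -0.42, and AURKA, the Aurora kinase of the spindle poles, at -0.53. BUB1 was 11.53, 11.47 and 12.22 in si-Control and 11.20, 10.98 and 11.11 in HIF-1α knockdown, so its groups did not overlap. Its difference missed the threshold (limma adjusted P = 0.823). Other uncalled genes without overlap were MCM2 and GINS1, above si-Control, and POLA1, PTTG1 and the brighter CCNB1 probe, below it. The share of all genes without overlap was not counted. Of the motors, KIF11 and KIF23 were at 0.27 and 0.35 and KIF20A at -0.65. The centromere genes CENPA and CENPF were at -0.25 and -0.39, with the other CENPF probe at -0.81 ± 0.39, which also missed the threshold. Genes for the end of mitosis, CDC20, UBE2C and PTTG1, were at -0.06, -0.21 and -0.50. The proliferation marker MKI67 was at 0.10 ± 0.40, with its other probes at 0.13 and -0.07, and the DNA topoisomerase TOP2A at -0.23 ± 0.41.

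**Figure D3:**
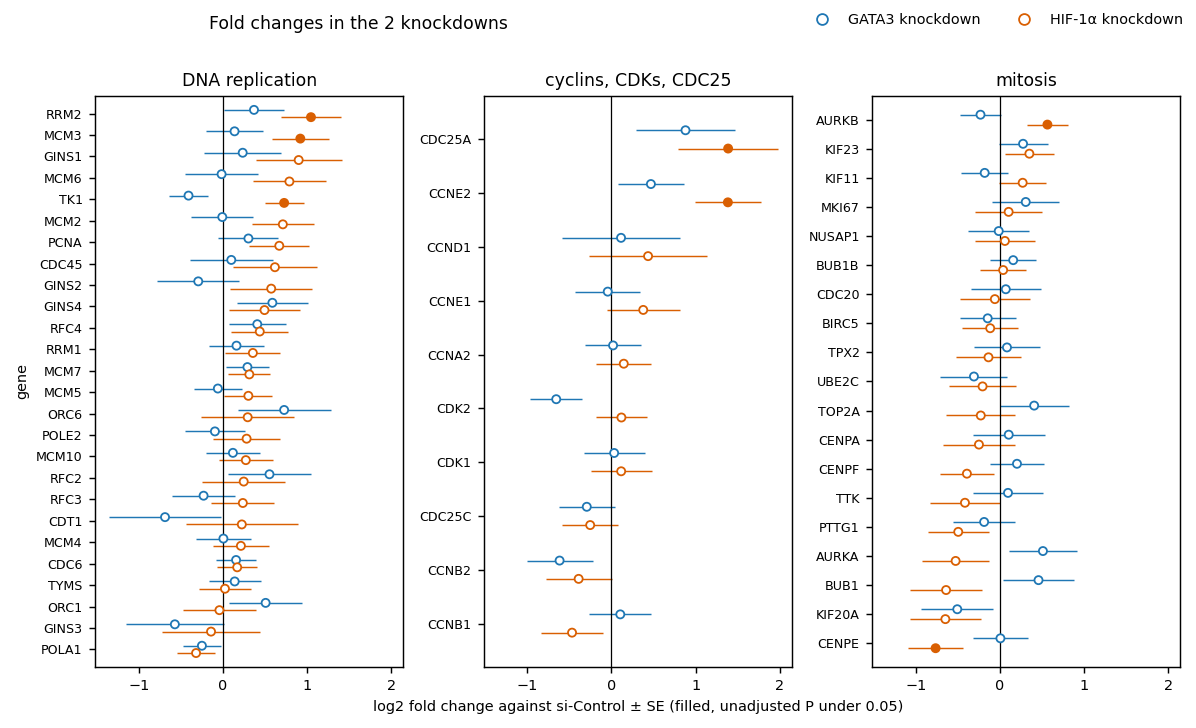
Log2 fold change ± SE against si-Control (x axis) of each gene in GATA3 knockdown and HIF-1α knockdown, in 1 panel per class, filled where the unadjusted limma P was under 0.05. In HIF-1α knockdown 23 of 26 replication genes lie above 0 and 13 of 19 mitosis genes below it, and no GATA3 knockdown point is filled. Over all genes 49% were higher in HIF-1α knockdown. The split was not the same on every slide. On slides 1, 2 and 3, 22, 24 and 8 replication genes and 12, 12 and 1 mitosis genes were higher.

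In GATA3 knockdown, 0 of the 55 genes were called at the unadjusted threshold in limma, against 2.97% of all 47720 genes tested (1.59% higher and 1.38% lower). The replication median was 0.13 (16 higher, 10 lower), the cyclin and CDK median 0.03 (6 higher, 4 lower) and the mitosis median 0.08 (12 higher, 7 lower), beside -0.02 over all genes. These medians changed sign from slide to slide, at 0.40, -0.01 and -0.13 for replication and 0.69, -0.43 and 0.03 for mitosis. Replicate 2 of GATA3 knockdown was the low array in mitosis genes. With it left out, 3 mitosis genes passed the threshold, which were AURKA (0.94), BUB1 (1.00) and TOP2A (0.87). Without GATA3 knockdown replicate 3 AURKA and BUB1 were at 0.18 and 0.17, and without replicate 1 TOP2A was at 0.14. ORC6 (0.73) passed the threshold without si-Control replicate 3 (1.20) and was at 0.21 without si-Control replicate 1. With the slide as a block, 2381 of all genes passed in place of 1418, and 1 of the 55 genes, CDC25A.

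CDK2, the cyclin E partner, was 14.03, 14.46 and 14.75 in si-Control and 13.89, 13.36 and 14.03 in GATA3 knockdown. All 3 knockdown arrays were below all controls, by 0.15, 1.10 and 0.72 on the 3 slides, and the difference was -0.66 ± 0.31 (limma adjusted P = 1). It passed the unadjusted threshold in the authors' log2 table (-0.78) and with non-uniform spots kept (-0.68), and without si-Control replicate 1 (-0.85), GATA3 knockdown replicate 3 (-0.79) or HIF-1α knockdown replicate 2 (-0.66), and was at -0.46 without GATA3 knockdown replicate 2. TK1 was also below all controls on every array, at -0.41 ± 0.23 (limma adjusted P = 1). CDC25A was higher on each slide, by 1.33, 0.67 and 0.63, with a difference of 0.88 ± 0.59. It passed the threshold with the slide as a block, but was at 0.23 without si-Control replicate 1. CDT1 ranged from 11.11 to 14.06 within the group and its difference was -0.69 ± 0.66. It passed the threshold without GATA3 knockdown replicate 3 (-1.36) and changed sign without replicate 1 (0.12). MKI67 was at 0.31 ± 0.40, with its other probes at -0.16 and -0.09. CCNE2 was at 0.47 ± 0.39 and its second probe at -0.10. PCNA was at 0.30 ± 0.36 and its other probe at 0.37, and without si-Control replicate 1 PCNA was at -0.05.

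The knockdowns were also compared with each other, which leaves the control arrays out of the difference. Of the 55 genes, 8 were called (14.5%), against 12.0% of all 47356 genes tested, which is a share near that of all genes. In GATA3 knockdown relative to HIF-1α knockdown 3 were higher, against 6.93% of all genes, and 5 lower, against 5.05%. The 5 lower genes were TK1 (-1.14), CCNE2 (-0.91), AURKB (-0.80), MCM3 (-0.78) and CDK2 (-0.77). The 3 higher genes were the mitotic kinases BUB1 (1.10) and AURKA (1.04), and CENPE (0.77). The replication median was -0.36 (6 higher, 20 lower) and the mitosis median 0.20 (13 higher, 6 lower). By slide they were -0.17, -0.66 and 0.14, and 0.43, -0.59 and 0.79. With the slide as a block, MCM2 (-0.72), MCM6 (-0.81) and GINS2 (-0.87) passed the unadjusted threshold as well.

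TK1 had the smallest P of the list, with a limma adjusted P = 0.183. All 3 GATA3 knockdown arrays were lower, by 1.41, 0.72 and 1.28 on the 3 slides, and the call held whichever array was left out. The TK1 difference was -0.53 with the processed signal and -0.55 in the authors' log2 table, and missed the threshold in both. AURKB was lower by 0.90, 0.73 and 0.75 on the 3 slides (-0.80 ± 0.24, limma adjusted P = 0.342), and this call also held whichever array was left out. AURKA was 15.32, 14.27 and 15.79 in GATA3 knockdown (chr20:56369390-56392215) and 14.10, 13.97 and 14.20 in HIF-1α knockdown, with no overlap, and BUB1 (chr2:110637528-110678063) was 12.72, 11.11 and 12.77 against 11.20, 10.98 and 11.11, with overlap. In both genes GATA3 knockdown replicate 2 was close to the HIF-1α knockdown arrays and replicates 1 and 3 were well above them.

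The AURKA call was lost without GATA3 knockdown replicate 1 (0.94) or 3 (0.70) or HIF-1α knockdown replicate 1 (1.04) or 2 (0.98). The BUB1 call was lost without GATA3 knockdown replicate 1 (0.84) or 3 (0.81) or HIF-1α knockdown replicate 2 (1.04) or 3 (1.11). CCNE2 missed the threshold without GATA3 knockdown replicate 2 (-0.93) or 3 (-0.77) or HIF-1α knockdown replicate 2 (-0.52), and CDK2 (chr12:55966830-55972789) without replicate 2 of GATA3 knockdown (-0.58) or of HIF-1α knockdown (-0.54). MCM3 lost its call in 6 of the 9 fits with 1 array left out, between -0.58 and -0.85, namely without si-Control replicate 2, any GATA3 knockdown array, or HIF-1α knockdown replicate 1 or 2. CENPE lost it in 6, between 0.47 and 0.88, without si-Control replicate 2, GATA3 knockdown replicate 1 or 3, or any HIF-1α knockdown array. MCM3 also missed the threshold with the processed signal (-0.74), the authors' log2 table (-0.76), no background offset (-0.78) and 75th percentile scaling (-0.72). CENPE missed it with the processed signal (0.78), the authors' log2 table (0.81) and eBayes with trend (0.77), and CDK2 with the processed signal (-0.76).

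The replication median was also set against the mitosis median of the same array, each gene taken as its difference from its si-Control mean. The si-Control arrays were at -0.34, 0.19 and 0.06, the GATA3 knockdown arrays at -0.37, 0.66 and -0.20, and the HIF-1α knockdown arrays at 0.20, 0.85 and 0.70. HIF-1α knockdown was the highest array on each slide. Its group mean was 0.58 ± 0.34 (SD, n = 3), against -0.03 ± 0.28 in si-Control and 0.03 ± 0.55 in GATA3 knockdown, and its lowest array was level with the highest si-Control array (0.20 and 0.19). No test was made of this value, since the classes were chosen with results known.

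**Figure D4:**
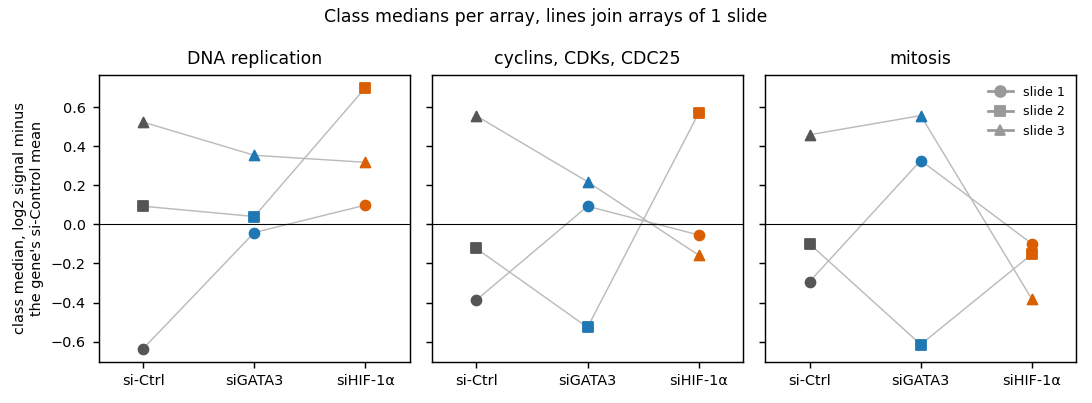
Median over each class of the log2 signal minus the gene's si-Control mean (y axis) on each array, by group, with grey lines that join the arrays of 1 slide. In replication genes si-Control replicate 1 is lowest (-0.64) and HIF-1α knockdown replicate 2 highest (0.70), and in mitosis genes the 3 HIF-1α knockdown arrays lie between -0.38 and -0.10.

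Further genes of these pathways were taken from lists of other members, which were written with earlier results of these data known. Of 34 other replication genes, 2 rose in HIF-1α knockdown (5.88%) and 0 fell, against 1.95% higher and 3.28% lower of all genes. They were DTL (1.29), an adaptor that marks CDT1 for destruction, and POLD3 (0.72), a polymerase delta subunit. Of 40 other mitosis genes, 2 rose (5.0%) and 0 fell, against the same 1.95% and 3.28% of all genes. In both lists the share called was near the 5.23% of all genes called in either direction. The mitosis genes that rose were MYBL2 (0.67), a transcription factor of the cell cycle, and SPC25 (0.84), of the kinetochore. With 1 array left out, DTL kept its call in 7 of 9 fits, POLD3 in 6, MYBL2 in 5 and SPC25 in 7. Of 6 other cyclins and CDKs measured, CCND3, cyclin D3, rose by 1.04 and CCNH, cyclin H, fell by 0.81, with the call kept in 7 and 6 of 9 fits. In GATA3 knockdown both of these rose, CCND3 by 0.87 and CCNH by 0.80, where 1.59% of all genes were called higher. On leaving out each array in turn, that call of CCND3 held in 3 of 9 fits and that of CCNH in 5. None of the other 3 lists held a call in GATA3 knockdown, and with the slide as a block each held 1. CCNH was 13.68, 13.92 and 14.59 in si-Control, 15.02, 14.41 and 15.14 in GATA3 knockdown and 12.98, 13.28 and 13.48 in HIF-1α knockdown, and the knockdowns differed by 1.61 ± 0.31 (limma adjusted P = 0.162).

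Of 13 genes listed as CDK inhibitors or arrest genes, 4 fell in HIF-1α knockdown (30.8%) and 0 rose at the unadjusted limma threshold, against 3.28% lower and 1.95% higher of all genes. This list too was written with earlier results of these data known, and not every gene on it need hold the cycle back. The 13 genes had a median of -0.17 (5 higher, 8 lower in mean than si-Control). On slides 1, 2 and 3 the median was 0.07, -0.005 and -0.97. Higher but not called were BTG2 (0.49), CDKN2B (0.42), CDKN3 (0.42), CDKN1A (0.33) and CDKN1C (0.28). CDKN1B, the CDK inhibitor p27, was 14.65, 14.33 and 15.36 in si-Control and 13.88, 13.81 and 13.80 in HIF-1α knockdown and fell by 0.95. CCNG2, a cyclin that restrains the cycle, was 13.44, 13.57 and 14.67 in si-Control and 12.61, 12.73 and 12.86 in HIF-1α knockdown, fell by 1.16 and kept the call whichever array was left out. In both genes the groups did not overlap. GADD45A, a stress gene, fell by 1.32 and BTG1, an antiproliferative gene, by 1.02. On leaving out each array, the call of CDKN1B held in 8 of 9 fits, of GADD45A in 6 and of BTG1 in 8. In GATA3 knockdown 0 of the 13 were called.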

How the data were processed

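The authors deposited 1 scanner file per array made with Agilent Feature Extraction 10.5.1.1. It holds the median intensity of each of 60901 spots and the local background intensity, without normalisation between arrays. They also deposited a log2 table, which on every array lay within 0.001 of the log2 processed signal less a constant for at least 99.8% of values. With limma 3.58.1 in R 4.3.3, the median intensity was background corrected (normexp, offset 50), non-uniform spots were set to missing, control spots were dropped, arrays were quantile normalised and spots of a probe averaged. Accessions matched a RefSeq symbol for 31104 of 58201 probes. A single lmFit and eBayes model held the 3 groups, its tests were two-sided, and no dim probe was left out. The study's methods give the test and the unadjusted P of 0.05. The fit was tested on simulated data, but the settings and outcome are not given here, so no weight rests on that test. Genes described with their signals on each array are those that a rule named, by role and by calls. The gene classes, lists and this rule were chosen with earlier results of these data known. The number of arrays limits the precision.

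Whether the shared numbers pair the arrays was checked by correlating deviations from the group means. The 3 same-number pairs of si-Control and GATA3 knockdown were at 0.219, 0.589 and 0.7, and those with HIF-1α knockdown between -0.198 and 0.602. A pair of different numbers, si-Control replicate 1 with GATA3 knockdown replicate 2, was at 0.474. All other different-number pairs of these groups were negative, from -0.688 to -0.0655, so same-number arrays of si-Control and GATA3 knockdown mostly varied together. Different-number pairs of si-Control and HIF-1α knockdown were between -0.565 and 0.395. No pairing entered the main fit of any comparison. The number, which is also the slide, was the block in an alternative of every comparison. Alternatives were other signals and scalings, background corrections, filters, probe rules, the block, fits of 6 arrays, moderation, adjusted P and each array left out.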

Additional observations from a re-analysis of the deposited data

How the results depend on the processing

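None of the 15 calls (7 in HIF-1α knockdown and 8 between the knockdowns) changed sign under an alternative. Values that were not called did, such as CCND1 in HIF-1α knockdown (-0.30 without si-Control replicate 1), and so did class medians, such as the mitosis median in HIF-1α knockdown (0.09 without si-Control replicate 3). Of the calls, 142 values under the other alternatives kept the call and 38 lost it, as did 90 and 45 values with 1 array left out. After Benjamini-Hochberg adjustment no gene of the list passed (0 replication, 0 cyclin and CDK, and 0 mitosis genes in each comparison), and over all genes 0, 0 and 2 passed in GATA3 knockdown, HIF-1α knockdown and between the knockdowns. With the replicate number, which is the slide, as a block, all genes called went from 1418 to 2381, from 2478 to 3983 and from 5675 to 8876. Replication calls went to 5 in HIF-1α knockdown and 5 between the knockdowns, and cyclin and CDK calls to 1 in GATA3 knockdown. The block changed no other class count by more than 1.5 times. Only the 6 arrays compared gave 928 calls over all genes in GATA3 knockdown, 1 mitosis call in HIF-1α knockdown, and 8630 calls and 5 replication calls between the knockdowns. The processed signal gave 3050 calls in GATA3 knockdown, 0 mitosis calls in HIF-1α knockdown, and 0 replication and 1 cyclin and CDK call between the knockdowns. The authors' log2 table gave 2889 calls and 1 cyclin and CDK call in GATA3 knockdown, 0 mitosis calls in HIF-1α knockdown and 0 replication calls between the knockdowns. Scaling to the 75th percentile gave 0 mitosis calls in HIF-1α knockdown and 1 replication call between the knockdowns, eBayes with trend gave 0 mitosis calls in HIF-1α knockdown, and keeping non-uniform spots gave 1 cyclin and CDK call in GATA3 knockdown. The causes were not tested.

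With 1 array left out, calls in GATA3 knockdown ranged from 953 to 6006 over all genes, 0 to 3 replication, 0 to 2 cyclin and CDK and 0 to 3 mitosis genes. In HIF-1α knockdown they ranged from 1412 to 4798, 1 to 6, 1 to 3 and 0 to 3. Between the knockdowns they ranged from 2693 to 9702, 1 to 4, 0 to 2 and 1 to 9. A group of 3 arrays left 2, and the spread was then shared with the other groups. The SE of a listed gene's difference was between 0.23 and 0.70, which bounds the differences that 3 arrays a group can show.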
